A study of Mus musculus with 6 samples.

Results

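The 43 genes described here encode the machinery that moves cargo along the primary cilium. Of these, 7 belong to the IFT-A complex with its adaptor, 17 to the IFT-B complex and 9 to the BBSome with its recruiter. A further 5 belong to the dynein-2 motor and 5 to the kinesin-2 motors. All were taken by name from a list of symbols, and 43 of 43 were found among the 32061 genes of the deposited count table. RNA from cultured mouse biliary epithelial cells, which line the bile ducts, was sequenced in 3 samples depleted of primary cilia and 3 samples competent for them. The depleted cells had been treated with 4OHT and the competent cells had not. The abbreviation commonly stands for hydroxytamoxifen, which activates Cre recombinases fused to an oestrogen receptor domain. The labels give no strain, age, Cre driver or deleted gene for either group. In both groups the bile ducts were picked by hand from digested livers, passaged as organoids in Matrigel and then grown flat on collagen. Drug treatment and loss of cilia coincide in every sample, and their effects cannot be told apart. The labels do not state whether replicates are separate animals or cultures, so the p-values reflect the spread among these 6 libraries, and that spread may be technical.

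The primary cilium is a single antenna of the cell surface, built on a centriole, and in bile ducts it reaches into the lumen and senses flow and bile. It has no ribosomes of its own, so proteins are carried in and out on intraflagellar transport (IFT) trains. The trains hold both the IFT-A and the IFT-B complex. They are pulled towards the tip by the kinesin-2 motor and return to the base on the dynein-2 motor. The BBSome is an adaptor that rides on the trains and removes membrane proteins. Mutations of these genes cause ciliopathies, among them Bardet-Biedl syndrome and skeletal dysplasias, several of them with disease of the bile ducts.

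The 43 genes changed in both directions and by little. At an adjusted p below 0.05 from edgeR's quasi-likelihood test, 12 were higher and 21 lower in depleted cells, and 10 did not pass. Of all 13839 genes tested, 34.9% were higher and 34.3% lower, and 69.2% changed in either direction. All 43 passed the filter on low counts, although Kif17 did so with 5 to 19 counts per sample. Of the 43, 0 changed by more than 2-fold, against 9.87% of all genes, and 7 fell by more than 1.5-fold, against 11.6%, while 0 rose by that much, against 16.9%. The median log2 change of the 43 genes was -0.13, beside -0.0057 for all genes tested (-0.059 for the 43 without depleted replicate 3). This median is the value of the low-count Kif17 (standard error 0.47), and it was -0.18 with limma-voom. Regardless of sign, the median size of the change was 0.32 beside 0.38. Depleted and competent samples were fully apart for 13 genes that were higher and 21 that were lower in depleted cells, where 36.4% and 36.1% of all genes did so (72.5% together).

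The sub-complexes differed in the balance of their members, a difference that was not tested. Over all genes tested 34.9% were higher and 34.3% lower (69.2% together), and a sub-complex of few genes measures such shares coarsely. Of the 5 kinesin-2 genes 4 fell and 0 rose, with a median log2 change of -0.32. Of 11 genes of the IFT-B core 3 rose and 7 fell (median -0.24), and of 6 genes of the peripheral IFT-B part 2 rose and 3 fell (median -0.06). All 5 dynein-2 genes passed, 2 higher and 3 lower (median -0.29). Of 7 IFT-A genes 3 rose and 2 fell (median 0.11). The BBSome, with 9 genes, had 2 higher, 2 lower and 5 that did not pass (median 0.034). The IFT-A median turned to -0.11 with the trend along transcript length, described below, removed. It was 0.034 without competent replicate 1 and 0.068 without depleted replicate 2. With the trend removed the median of the IFT-B core was -0.14, of peripheral IFT-B -0.11 and of dynein-2 -0.13. The BBSome median lay between -0.024 and 0.064 when single samples were left out. Counts summed over cells cannot tell fewer cells of a type from less RNA per cell.

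**Figure D1:**
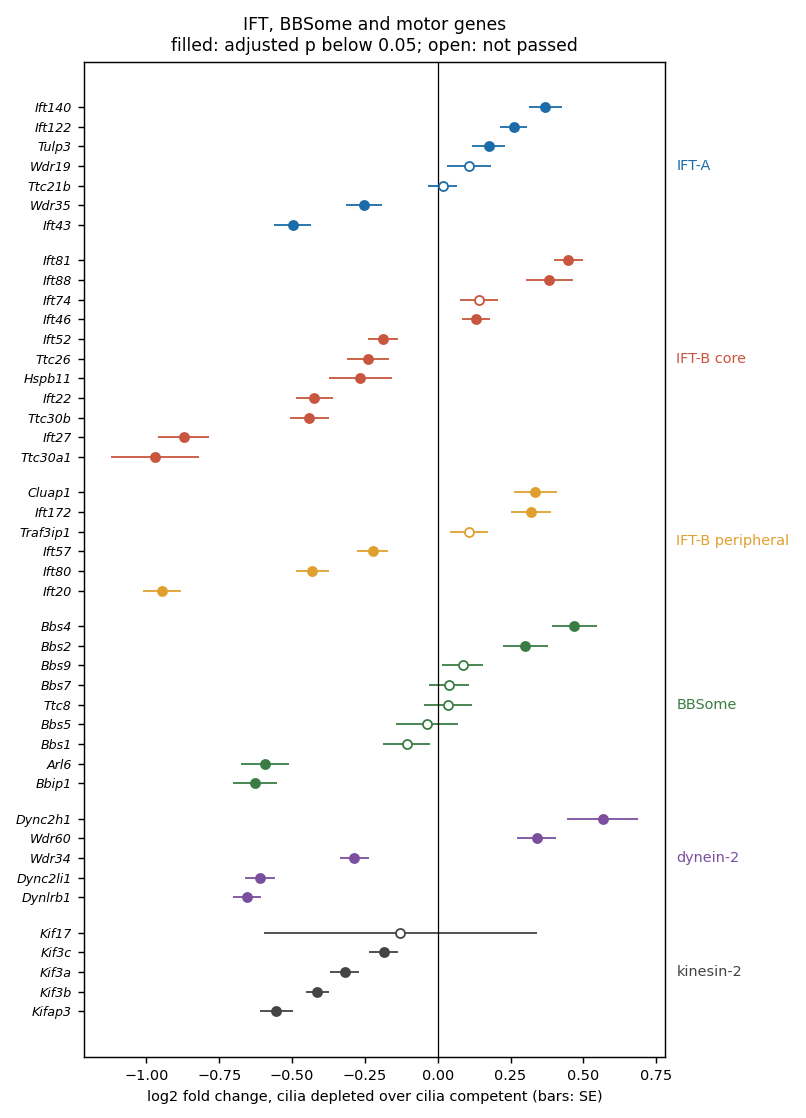
Log2 fold change of each of the 43 genes, cilia depleted over cilia competent, with its standard error (x axis), grouped by sub-complex; filled points had an adjusted p below 0.05 and open points did not pass. All 5 kinesin-2 genes, Kif17 among them as not passed, lie to the left of 0, and every other sub-complex has members on both sides.

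Promoters of ciliary genes are known in worms, flies and mammals for the X-box, the binding motif of RFX transcription factors, which has 2 arms of 6 bases. RefSeq promoter windows on GRCm38.p6, each of 300 bases from 250 before to 50 after a start, were matched by symbol to 38 of the 43 genes. No window was matched for Ift122, Ift81, Ttc30b, Ift80 and Dync2li1. The arm GTTGCC, searched on both strands, was found for 15 of the 38 genes (39.5%), beside 14.1% of 27025 genes with a window. Those 27025 genes include genes not expressed here, whereas all 43 members passed the filter on low counts. The share among expressed genes was not computed. An X-box with arms 0 to 3 bases apart was found for 4 of the 38 (Ift57, Bbs1, Dync2h1 and Kif17; 10.5%) beside 3.07% of all genes, and in 3 of the 4 it overlaps the GTTGCC match, the exception being Dync2h1. The presence of GTTGCC went with no one direction, since of the 15 genes with it 4 were higher, 6 lower and 5 not called (median log2 change -0.11), and of the 23 without it 6 were higher, 12 lower and 5 not called (median -0.19). The sequences below show such matches near RefSeq starts of 4 genes that rose and 4 that fell. The start used for Dync2h1 lies inside the longer gene of the GENCODE annotation, whose coordinates are given with its values. Capitals mark the X-box in Dync2h1 and the first X-box in Ift57, and GTTGCC or its reverse complement GGCAAC in the others. The stretches lie, on the strand of the gene, at chr9:7177022-7177051 (minus) for Dync2h1, chr17:25015947-25016012 (plus) for Ift140, chr5:31291097-31291126 (minus) for Ift172, chr14:57424080-57424109 (plus) for Ift88, chr16:49699177-49699250 (plus) for Ift57, chr15:78174082-78174120 (minus) for Ift27, chr11:53567241-53567306 (plus) for Kif3a and chr12:8974021-8974050 (plus) for Wdr35.
Dync2h1: gtgaagcgGTCGCCATAGCGACggagcttg
Ift140: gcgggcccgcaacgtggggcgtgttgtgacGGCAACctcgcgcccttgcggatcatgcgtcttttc
Ift172: tgtcgcactcacGTTGCCtgtgcgtcagcg
Ift88: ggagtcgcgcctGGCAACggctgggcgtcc
Ift57: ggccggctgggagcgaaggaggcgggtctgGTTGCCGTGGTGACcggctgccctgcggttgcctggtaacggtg
Ift27: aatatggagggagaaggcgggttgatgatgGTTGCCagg
Kif3a: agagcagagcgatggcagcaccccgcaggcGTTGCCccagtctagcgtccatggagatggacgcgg
Wdr35: gatgcgactgggcggcggtgGTTGCCaggc
These matches describe the letters of the windows and are not evidence of binding.

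Wdr35, which encodes the IFT-A subunit IFT121, is read first because it was taken, from knowledge of the study and not from the labels, as the gene that was deleted. Wdr35 (chromosome 12, 8973892 to 9028847, GRCm38) had 29.3, 28.5 and 26.2 CPM (read counts scaled to a common library size, with TMM factors) in the depleted samples, against 35.5, 32.5 and 31.9 CPM in the competent samples. All 3 depleted samples were below all 3 competent samples. Wdr35 was 1.19-fold lower (log2 change -0.25, SE 0.062, adjusted p = 0.00245). Its longest coding transcript has 28 exons, and a count summed over them does not show whether any single exon was lost, so the value checks neither the deletion nor the labels.

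Among the other IFT-A genes 2 core subunits rose and the smallest subunit fell. Ift140, a core subunit, had 31.2, 29.4 and 28.6 CPM in depleted samples, against 22.1, 23.6 and 23.3 CPM in competent samples, and was 1.29-fold higher (log2 change 0.37, SE 0.057, adjusted p = 6.41e-05). Ift122, another core subunit, had 46.6, 47.7 and 47.8 CPM in depleted samples, against 40.0, 38.2 and 40.3 CPM in competent samples, and was 1.198-fold higher (log2 change 0.26, SE 0.047, adjusted p = 0.000229). For both genes the depleted samples lay above all competent ones. Tulp3, the adaptor through which IFT-A brings receptors to the ciliary membrane, had 38.8, 37.5 and 36.6 CPM in depleted samples, against 35.7, 31.2 and 33.0 CPM in competent samples (log2 change 0.17, adjusted p = 0.0151). That call was lost without competent replicate 2 (log2 change 0.12, adjusted p = 0.0865), without competent replicate 3 (0.16, adjusted p = 0.0574) and without depleted replicate 1 (0.15, adjusted p = 0.0523), with upper-quartile scaling (0.12, adjusted p = 0.0765) and with the length trend described below removed (0.085, adjusted p = 0.185). Ift43, a small peripheral subunit, had 24.0, 22.3 and 25.0 CPM in depleted samples, against 31.8, 33.3 and 35.6 CPM in competent samples, and was 1.41-fold lower (log2 change -0.50, SE 0.063, adjusted p = 9.15e-06). The groups did not overlap, but with the length trend removed the call was lost (log2 change -0.11, adjusted p = 0.130). The counts of Ift140 per count of Ift43, a ratio that does not depend on library scaling, were 1.300, 1.320 and 1.145 in depleted samples and 0.694, 0.709 and 0.654 in competent samples. Since Ift140 rose and Ift43 fell without overlap, their ratios could not overlap either. The transcripts have 6942 and 783 nt, so the ratio still holds the length trend. The same applies to ratios given below wherever the lengths differ. With the trend removed the log2 changes were 0.13 for Ift140 and -0.11 for Ift43. Ttc21b, the peripheral subunit IFT139, had 33.6, 32.4 and 32.4 CPM in depleted samples, against 32.4, 31.6 and 33.2 CPM in competent samples, and its groups overlapped (log2 change 0.016, SE 0.050, adjusted p = 0.785). Wdr19, the core subunit IFT144, had 20.9, 23.8 and 22.9 CPM in depleted samples, against 18.8, 22.1 and 22.03 CPM in competent samples, and also did not pass (log2 change 0.11, adjusted p = 0.220).

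The IFT-B core held the largest fall of the 43 genes and 3 rises. Ift81 and Ift74 encode partners that bind tubulin as cargo. Ift81 had 42.7, 44.4 and 44.5 CPM in depleted samples, against 33.1, 32.3 and 31.1 CPM in competent samples, a 1.36-fold rise (log2 change 0.45, SE 0.049, adjusted p = 2.25e-06). Ift74 had 18.7, 21.1 and 21.3 CPM in depleted samples, against 18.7, 18.2 and 18.6 CPM in competent samples, and did not pass (log2 change 0.14, adjusted p = 0.0730); without depleted replicate 1 it passed (0.20, adjusted p = 0.0171). Counts of Ift81 per count of its partner Ift74 were 2.29, 2.10 and 2.08 in depleted samples and 1.77, 1.77 and 1.67 in competent samples, without overlap. Ift88, a core subunit whose loss abolishes cilia in mice, had 13.1, 13.2 and 13.6 CPM in depleted samples, against 11.2, 9.64 and 9.77 CPM in competent samples, and was 1.304-fold higher (log2 change 0.38, SE 0.082, adjusted p = 0.000917). Ift46, a core subunit, had 55.1, 52.9 and 55.5 CPM in depleted samples, against 52.4, 48.8 and 48.1 CPM in competent samples (log2 change 0.13, adjusted p = 0.0309). Its call was lost with DESeq2 (adjusted p = 0.0534), with upper-quartile scaling (0.179), without the filter on low counts (0.0601), with the length trend removed (0.955), and without competent replicate 2 (0.107), competent replicate 3 (0.153), depleted replicate 1 (0.0702) or depleted replicate 3 (0.0819).

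The pair of small core subunits that carries the BBSome out of the cilium, IFT27 and its partner IFT25, fell to different degrees in the fit without length correction. Ift27, which encodes a small GTPase, had 9.11, 10.3 and 10.1 CPM in depleted samples, against 20.1, 16.9 and 17.2 CPM in competent samples, and was 1.83-fold lower (log2 change -0.87, SE 0.087, adjusted p = 9.45e-07). Hspb11, which encodes IFT25, had 121, 174 and 172 counts in depleted samples, against 195, 216 and 238 counts in competent samples. After scaling Hspb11 was at 4.79, 5.42 and 4.87 CPM in depleted samples, against 5.72, 6.11 and 6.32 CPM in competent samples (log2 change -0.27, SE 0.11, adjusted p = 0.0422). That call depended on the setting. It was lost with DESeq2 (adjusted p = 0.0925), without the filter on low counts (0.0528), with the replicate number as a block (0.0543), and without competent replicate 2 (0.0739), competent replicate 3 (0.112), depleted replicate 1 (0.113) or depleted replicate 3 (0.109). With the length trend removed the sign of Hspb11 turned (log2 change 0.10, adjusted p = 0.436). Counts of Hspb11 per count of Ift27 were 0.526, 0.527 and 0.483 in depleted samples and 0.285, 0.361 and 0.368 in competent samples, without overlap.

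Falls in the rest of the IFT-B core ranged from 1.14-fold for Ift52 to 1.96-fold for Ttc30a1. Ttc30a1 and Ttc30b encode copies of IFT70, a core subunit that wraps around IFT52. Ttc30a1 had 96, 93 and 104 counts in depleted samples, against 238, 181 and 249 counts in competent samples, which is 3.802, 2.90 and 2.94 CPM in depleted samples, against 6.98, 5.12 and 6.61 CPM in competent samples (log2 change -0.97, SE 0.15, adjusted p = 6.94e-05). Ttc30b, the more abundant copy, had 16.6, 16.4 and 16.6 CPM in depleted samples, against 23.9, 20.6 and 22.8 CPM in competent samples (1.36-fold lower, adjusted p = 5.97e-05). The related Ttc30a2 was 1.58-fold lower (adjusted p = 0.00480). The copies are single-exon neighbours on chromosome 2, and of the 100-base windows of the Ttc30a1 transcript 19.3% occur unaltered in Ttc30a2 and 7.68% in Ttc30b, so reads can be split among them and their separate values are uncertain. All 3 copies fell. Ift22, which encodes a small GTPase-like subunit, was 1.341-fold lower at 26.8 ± 0.193 CPM in depleted and 35.9 ± 3.11 CPM in competent samples (SD, n = 3 each; adjusted p = 4.98e-05). Ift52, a scaffold of the core, averaged 38.7 ± 1.38 CPM in depleted and 44.1 ± 1.65 CPM in competent samples (adjusted p = 0.00512). Ttc26, which encodes IFT56, averaged 14.8 ± 0.899 CPM in depleted and 17.5 ± 0.950 CPM in competent samples (log2 change -0.24, adjusted p = 0.00975), a call lost without depleted replicate 2 (log2 change -0.19, adjusted p = 0.0573).

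In the peripheral part of IFT-B, which is joined to the core, Ift20 fell most. Ift20 (chromosome 11, 78536361 to 78541737), whose product also sits at the Golgi and sorts ciliary membrane proteins, had 11.96, 12.6 and 11.4 CPM in depleted samples, against 22.6, 23.0 and 23.7 CPM in competent samples. It was 1.93-fold lower (log2 change -0.95, SE 0.066, adjusted p = 2.81e-08), with both groups tight. Ift80 had 25.0, 26.6 and 25.4 CPM in depleted samples, against 33.0, 36.7 and 34.1 CPM in competent samples (1.35-fold lower, adjusted p = 1.47e-05). Ift57, the most abundant of the 6 in CPM, had 48.3, 47.5 and 48.8 CPM in depleted samples, against 59.2, 52.2 and 57.5 CPM in competent samples (1.17-fold lower, adjusted p = 0.00211). IFT57 and IFT20 bind each other, and counts of Ift57 per count of Ift20 were 4.04, 3.77 and 4.27 in depleted samples and 2.62, 2.27 and 2.43 in competent samples. Rises were seen for Ift172 and Cluap1. Ift172, the longest IFT-B protein, had 34.3, 31.9 and 29.0 CPM in depleted samples, against 23.7, 25.9 and 26.5 CPM in competent samples (1.25-fold higher, log2 change 0.32, SE 0.069, adjusted p = 0.000967), a call lost with the length trend removed (0.13, adjusted p = 0.0681). Cluap1, which encodes IFT38, had 16.9, 19.6 and 18.03 CPM in depleted samples, against 14.2, 14.1 and 15.1 CPM in competent samples (1.26-fold higher, adjusted p = 0.00106). Of the exon length of Cluap1, 22.4% overlaps Gm20695 on the same strand and 16.1% overlaps 1700016D08Rik on the opposite strand. How the counting treated strand is not given in the sources used here. Traf3ip1, which encodes the tubulin-binding IFT54, had 18.3 ± 0.954 CPM in depleted and 16.9 ± 0.353 CPM in competent samples and did not pass (log2 change 0.11, adjusted p = 0.162).

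In the BBSome 5 of 9 genes, Bbs1, Bbs5, Bbs7, Bbs9 and Ttc8, did not pass, with log2 changes from -0.11 for Bbs1 to 0.086 for Bbs9. The groups of all 5 overlapped, where those of 72.5% of all genes tested did not. Bbs5, which binds phosphoinositides of the ciliary membrane, had 7.76, 8.91 and 8.72 CPM in depleted samples, against 9.98, 8.06 and 8.15 CPM in competent samples. Bbs9, a scaffold subunit, had 17.7, 20.8 and 19.8 CPM in depleted samples, against 18.1, 18.9 and 18.2 CPM in competent samples. Standard errors of the 5 genes were 0.069 to 0.11, so changes of this size were not detectable in this fit. A miss of the threshold does not show that these genes were equal in the groups. Bbs1 passed with the length trend removed (log2 change -0.30, adjusted p = 0.00195). Bbs4 had 13.0, 13.3 and 12.9 CPM in depleted samples, against 9.54, 9.87 and 8.92 CPM in competent samples (1.38-fold higher, log2 change 0.47, SE 0.078, adjusted p = 0.000115). Bbs2 had 14.2, 13.1 and 14.6 CPM in depleted samples, against 11.4, 10.8 and 11.8 CPM in competent samples (1.23-fold higher, adjusted p = 0.00350). Both encode structural subunits, and BBS2 belongs to the part of the complex that is assembled first. Bbip1, which encodes the smallest subunit, had 13.7, 12.7 and 14.4 CPM in depleted samples, against 19.7, 22.6 and 20.8 CPM in competent samples, and was 1.55-fold lower (log2 change -0.63, SE 0.075, adjusted p = 5.34e-06). Arl6, the GTPase that recruits the BBSome to membranes, had 15.8, 15.6 and 19.3 CPM in depleted samples, against 26.3, 24.3 and 26.2 CPM in competent samples, and was 1.51-fold lower (log2 change -0.59, SE 0.081, adjusted p = 2.01e-05). Counts of Arl6 per count of Bbs1 were 0.899, 0.988 and 1.38 in depleted samples and 1.599, 1.44 and 1.51 in competent samples, so depleted replicate 3 came close to the competent samples.

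Dynein-2, the motor of the return journey, divided by subunit size. Dync2h1 (chromosome 9, 6928503 to 7184446), the motor-bearing heavy chain, had 19.3, 18.9 and 19.8 CPM in depleted samples, against 9.68, 14.6 and 14.8 CPM in competent samples, and was 1.48-fold higher (log2 change 0.57, SE 0.12, adjusted p = 0.000984). Competent replicate 1 stood apart below the others, and without it the rise was smaller (log2 change 0.39, adjusted p = 0.000243). Wdr60, an intermediate chain, had 19.3, 17.9 and 19.1 CPM in depleted samples, against 14.2, 15.3 and 14.97 CPM in competent samples (1.27-fold higher, log2 change 0.34, SE 0.067, adjusted p = 0.000467). The other intermediate chain gene, Wdr34, went the opposite way, with 30.6, 31.3 and 32.0 CPM in depleted samples, against 38.9, 38.3 and 37.3 CPM in competent samples (1.22-fold lower, adjusted p = 0.000137). Counts of Wdr60 per count of Wdr34 were 0.631, 0.572 and 0.598 in depleted samples and 0.364, 0.400 and 0.401 in competent samples. Dync2li1, the light intermediate chain found only in this dynein, had 28.6, 30.2 and 29.7 CPM in depleted samples, against 47.4, 43.7 and 44.2 CPM in competent samples (1.53-fold lower, log2 change -0.61, SE 0.052, adjusted p = 2.23e-07). Dynlrb1, a light chain shared with cytoplasmic dynein-1, had 53.9, 55.4 and 57.3 CPM in depleted samples, against 89.3, 82.7 and 90.3 CPM in competent samples (1.57-fold lower, log2 change -0.65, SE 0.049, adjusted p = 5.52e-08). The groups did not overlap for any of the 5 genes, as for 72.5% of all genes tested. Counts of the heavy chain gene per count of Dynlrb1 were 0.358, 0.342 and 0.346 in depleted samples and 0.108, 0.177 and 0.164 in competent samples. In both pairs 1 gene rose and the other fell without overlap, so the ratios could not overlap. Both ratios also hold the length trend. The transcripts have 14264 nt for Dync2h1, 788 nt for Dynlrb1, 3721 nt for Wdr60 and 1814 nt for Wdr34.

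Kinesin-2 fell in all 4 of its well-expressed genes. The heterotrimer that drives IFT trains towards the tip consists of the motors KIF3A and KIF3B and the adaptor KAP3. Kif3a had 68.1, 69.4 and 72.6 CPM in depleted samples, against 88.3, 82.1 and 91.8 CPM in competent samples (1.25-fold lower, log2 change -0.32, SE 0.050, adjusted p = 7.15e-05). Kif3b, the highest of the 43 genes in CPM, had 101, 95.5 and 96.1 CPM in depleted samples, against 129, 130.4 and 129.9 CPM in competent samples (1.33-fold lower, log2 change -0.41, SE 0.041, adjusted p = 8.23e-07). Kifap3, which encodes KAP3, had 26.4, 23.7 and 25.2 CPM in depleted samples, against 36.4, 35.8 and 38.1 CPM in competent samples (1.47-fold lower, log2 change -0.55, SE 0.057, adjusted p = 1.19e-06). The motor pair kept its ratio within the spread of the samples: counts of Kif3a per count of Kif3b were 0.674, 0.727 and 0.756 in depleted samples and 0.683, 0.630 and 0.707 in competent samples. Counts of Kifap3 per count of Kif3a were 0.388, 0.341 and 0.347 in depleted samples and 0.412, 0.436 and 0.415 in competent samples, lower in 3 of 3 depleted samples. Kif3c, an alternative partner of KIF3A, had 44.2, 45.0 and 47.4 CPM in depleted samples, against 50.1, 51.9 and 53.5 CPM in competent samples (1.14-fold lower, adjusted p = 0.00434). Of its exon length 35.3% overlaps a gene on the opposite strand, so its value may hold reads of that gene. Kif17, the homodimeric kinesin-2 known mainly from neurons, had 6, 19 and 5 counts in depleted samples, against 12, 11 and 15 counts in competent samples, and no change was detectable at this depth (log2 change -0.13, SE 0.47, adjusted p = 0.822).

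**Figure D2:**
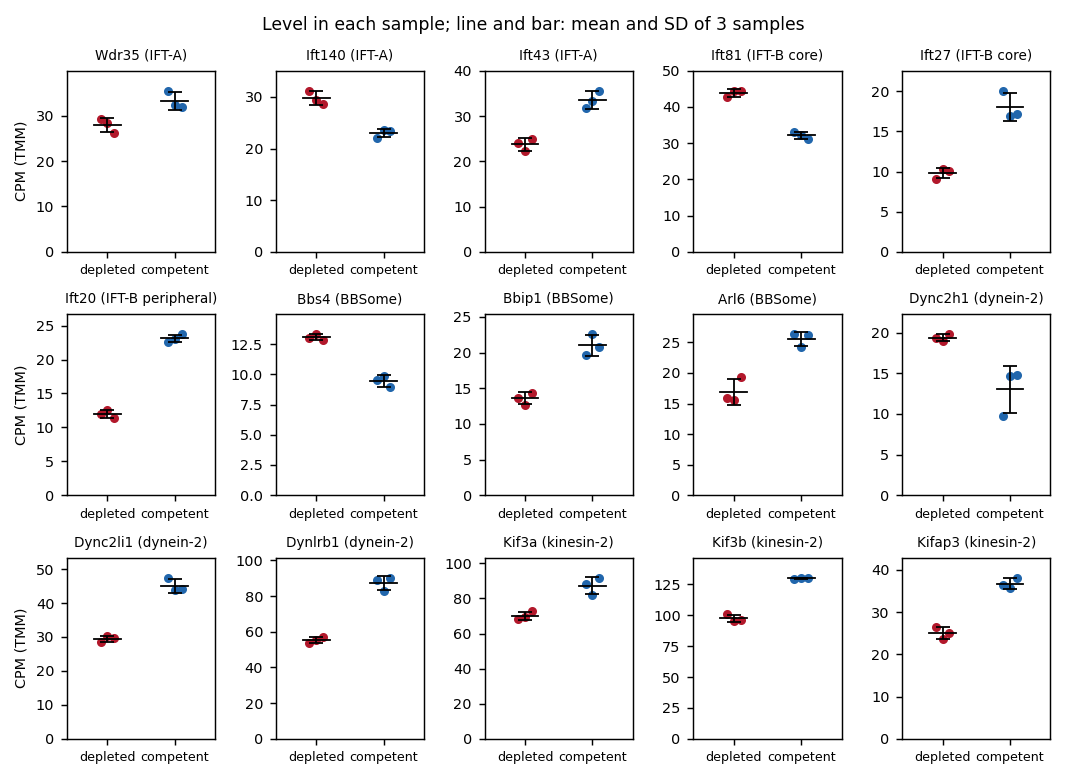
Level of 15 genes in each sample (y axis, TMM-scaled CPM from 0; points are samples, the line and bar the mean and SD of 3), with cilia depleted left of cilia competent. Points of the groups do not overlap in any panel, as for 72.5% of all genes tested. Competent replicate 1 of Dync2h1, at 9.68 CPM, lies below the other 2 competent samples.

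Levels between genes were compared per length, as CPM per kilobase (kb) of the longest coding transcript. The light chain gene Dynlrb1 was highest, at 70.4 CPM per kb in depleted and 111.0 CPM per kb in competent cells, and Dync2h1, the heavy chain of the same motor, was among the lowest, at 1.36 CPM per kb in depleted and 0.914 CPM per kb in competent cells. Only Kif17, at 0.0938 CPM per kb in depleted and 0.102 CPM per kb in competent cells, and, in depleted cells alone, Ttc30a1, at 0.864 CPM per kb, were lower than Dync2h1 in the same cells. The BBSome genes in depleted cells spanned 2.82 CPM per kb for Bbs1 to 9.97 CPM per kb for Arl6, and in competent cells 3.02 to 15.1 CPM per kb for the same genes. The 4 subunit genes Bbs5, Ttc8, Bbs9 and Bbs7 lay within 5.30 to 5.77 CPM per kb in depleted and 5.16 to 5.95 CPM per kb in competent cells. Summed over its members, dynein-2 stood at 115.9 ± 2.93 CPM per kb in depleted and 170.2 ± 5.87 CPM per kb in competent samples (SD, n = 3 each), a sum that Dynlrb1 dominates. The kinesin-2 sum was 52.5 ± 0.866 CPM per kb in depleted and 67.6 ± 1.92 CPM per kb in competent samples. IFT-A, the IFT-B core and the BBSome had sums in depleted cells that were 0.890, 0.891 and 0.891 of those in competent cells, although medians of their members' log2 changes were 0.11, -0.24 and 0.034. Single members weigh heavily in such sums. Ift43 alone was at 30.4 CPM per kb in depleted and 42.9 CPM per kb in competent cells, within IFT-A sums of 74.4 and 83.6. In the BBSome, besides Arl6, Bbip1 was at 6.65 CPM per kb in depleted and 10.3 CPM per kb in competent cells, within sums of 51.2 and 57.5. Length here is that of one annotated transcript and moves these levels: with the union of all exons Dynlrb1 was at 55.0 CPM per kb in depleted and 86.6 CPM per kb in competent cells.

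**Figure D3:**
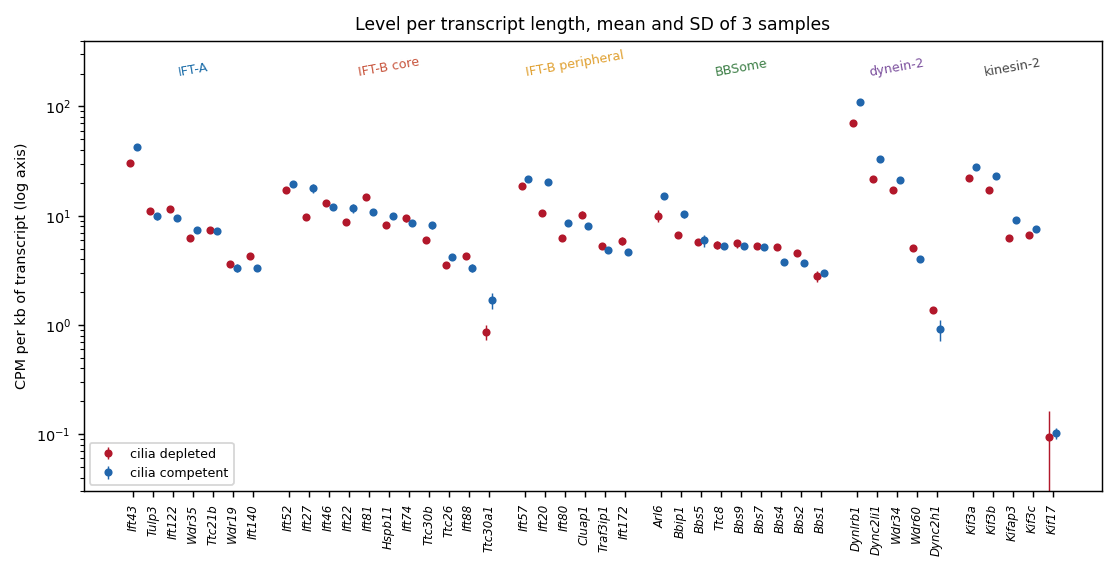
Level per kb of transcript for each gene (y axis, log scale; mean and SD of 3 samples), cilia depleted left of cilia competent, sorted within each sub-complex by the competent level. Dynlrb1 is the highest at 70.4 CPM per kb in depleted and 111.0 CPM per kb in competent cells, and Kif17 the lowest.

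Longer genes had the higher changes. Over the 43 genes Spearman's rho between the length of the longest coding transcript and the log2 change was 0.39, beside 0.33 over 13831 genes tested that have a length. These are correlations across genes measured in the same 6 libraries, which are not independent replicates, and no p is given. With the union of exons as the length rho over the 43 was 0.53, and with the length of the protein 0.52. Within dynein-2 the order of change was the order of length in all 5 genes, with Dync2h1 (14264 nt) highest and Dynlrb1 (788 nt) lowest. Kinesin-2 showed no such order (rho -0.10 over 5 genes), and rho over the 17 IFT-B genes was 0.18. These values depended on the length used: kinesin-2 gave 0.30 with the union of exons and 0.60 with protein length, and IFT-B gave 0.25 and 0.38. Single libraries were read the same way. Over the 43 genes, rho with the log2 ratio to the competent mean was 0.45, 0.34 and 0.30 in the 3 depleted samples. Competent replicate 1, set against the other competent samples, gave -0.30, competent replicate 2 gave 0.31 and competent replicate 3 gave 0.21. Libraries of one group thus differed along length as well. Each competent sample is part of the reference of the others, so these 3 competent values are not separate evidence. Over all genes rho was -0.29, 0.16 and 0.18 in competent replicates 1, 2 and 3. It was 0.35, 0.34 and 0.29 in the depleted samples. In log2 units the offset from the competent samples was larger in depleted samples. Between the longest and the shortest of 5 bins of all protein-coding genes, the median log2 ratio differed by 0.51 to 0.59 in depleted samples. In competent samples, each set against the others, it differed by -0.11 to 0.063. The depleted samples were set against all 3 competent samples, so the spreads of these ranges cannot be compared directly.

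In the shortest of the 5 bins, up to 1808 nt, 7 of 9 genes of these complexes fell and 1 rose, where 58.6% of the 2557 genes of the bin fell and 12.4% rose, and the median log2 change was -0.59 beside -0.36 for the bin. In the longest bin, from 5166 nt, 3 of 7 rose and 2, Kif3b and Kif3c, fell, where 53.3% of all its genes rose and 19.5% fell, with a median of 0.11 beside 0.25. The fourth bin, 3689 to 5164 nt, had a median of 0.14 over all its genes and -0.24 over the 9 members, and 7 of the 9, among them Kifap3, Ift80 and Wdr35, lay below the bin's median. The bin of 1809 to 2706 nt had a median of -0.068 over all its genes and -0.077 over its 8 members. Of those 8 members, 4 lay below the bin's median. The bin of 2707 to 3688 nt had a median of 0.054 over all its genes and 0.096 over its 10 members. Of those 10 members, 4 lay below the bin's median. The trend moves with the group, and its part in the changes of single genes was not tested beyond the values with it removed.

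**Figure D4:**
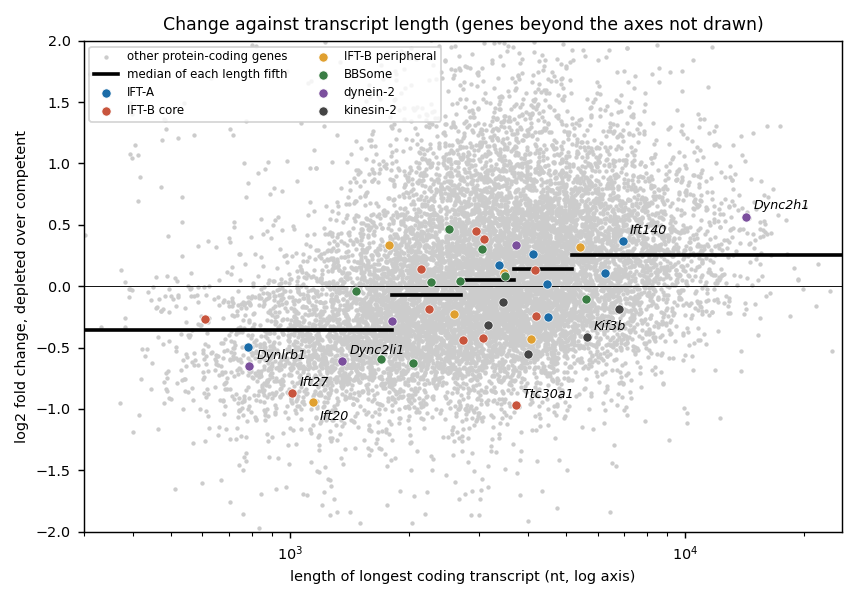
Log2 fold change, cilia depleted over cilia competent (y axis), against the length of the longest coding transcript (x axis, log scale). Grey points are other protein-coding genes, coloured points the 43 genes by sub-complex, and black bars the medians of 5 length bins, which run from -0.36 in the shortest bin to 0.25 in the longest.

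With the length trend removed, by a smooth curve fitted to each library over all genes, 10 of the 43 genes were higher, 21 lower and 12 did not pass, beside 33.8% higher and 35.0% lower over all genes (68.9% together). The direction and call of 28 of the 33 called genes were the same with and without the trend. All 4 kinesin-2 genes that fell were further down, with log2 changes of -0.67 for Kifap3, -0.61 for Kif3b, -0.42 for Kif3c and -0.39 for Kif3a (adjusted p from 7.99e-10 to 2.64e-06). Wdr35 moved to -0.40 (adjusted p = 1.98e-05), Ift80 to -0.55 and Ttc26 to -0.37. Ttc30a1 moved to -1.08 (2.11-fold lower, adjusted p = 8.35e-06), the largest change of the 43 in this fit. Of the 9 genes of the shortest bin, 5 moved up and were still lower in depleted cells: Ift20 to -0.60, Ift27 to -0.50, Dync2li1 to -0.31 and Dynlrb1 to -0.27, each with an adjusted p of 5.12e-05 or less, and Arl6 to -0.41 (adjusted p = 0.000168). Dynein-2 kept its division, with Dync2h1 and Wdr60 both at 0.23 (adjusted p = 0.0343 and 0.00612). The calls of Ift43 (log2 change -0.11, adjusted p = 0.130), Ift172 (0.13, adjusted p = 0.0681), Tulp3, Ift46 and Hspb11 were lost. Bbs1 (-0.30, adjusted p = 0.00195), Ttc21b (-0.13, adjusted p = 0.0312) and Ift74 (0.21, adjusted p = 0.00960) passed with the trend removed and not with it, and Ift74 also passed without depleted replicate 1. Of the 43 log2 changes 5 took the other sign, those of Hspb11 (to 0.10), Ttc21b, Wdr19 (to -0.11), Bbs5 (to 0.22) and Bbs9 (to -0.011), and 0 of these passed in both fits. The median of kinesin-2 moved to -0.42, while the BBSome stayed near 0.

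**Figure D5:**
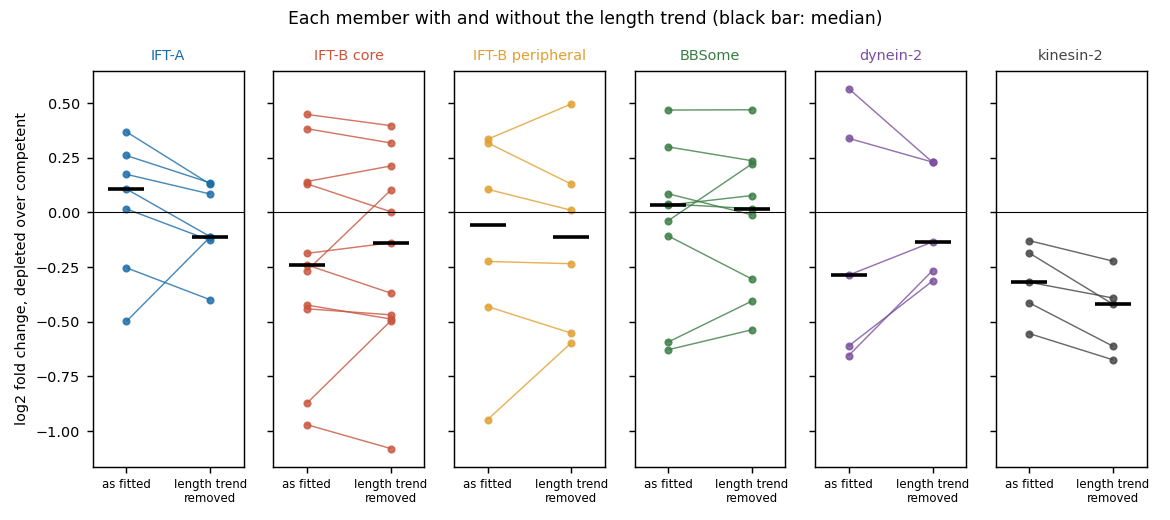
Log2 fold change of each gene (y axis, cilia depleted over cilia competent) as fitted and with the length trend removed, 1 line a gene and 1 panel a sub-complex; the black bar is the median. The 4 well-expressed kinesin-2 genes move further below 0, and the dynein-2 genes draw together but keep their signs.

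A list of 22 genes that assist this machinery was described beside it. Of 20 tested, 6 were higher and 8 lower, beside 34.9% and 34.3% of all genes tested, and 6 were not called (median log2 change -0.05). With the length trend removed 4 rose and 9 fell (median 0.03), beside 33.8% and 35.0% of all genes. Mkks, a chaperonin-like gene needed to assemble the BBSome, had 8.59, 8.01 and 7.45 CPM in depleted samples, against 3.70, 3.73 and 3.45 CPM in competent samples, and was 2.20-fold higher (adjusted p = 6.48e-07); 29.3% of its exon length overlaps another gene on the same strand. The other BBSome chaperonin genes, Bbs10 and Bbs12, did not pass (log2 changes 0.12 and -0.031). Ccdc28b, a modifier of Bardet-Biedl syndrome, was low throughout, with 1.70, 1.53 and 1.81 CPM in depleted samples, against 0.880, 0.933 and 0.690 CPM in competent samples (2.02-fold higher, adjusted p = 0.000819). Cdk20, a kinase acting on IFT through ICK, had 6.81, 5.86 and 6.77 CPM in depleted samples, against 3.96, 3.73 and 2.97 CPM in competent samples (1.82-fold higher, adjusted p = 5.32e-05). The groups did not overlap for either gene, as for 72.5% of all genes tested. Dynll1, a light chain shared by dyneins, had 105, 110.3 and 109.6 CPM in depleted samples, against 181, 181 and 176 CPM in competent samples (1.65-fold lower, adjusted p = 3.90e-09). Lower still in level, Dynlrb2, the ciliated-tissue counterpart of Dynlrb1, had 1 count in all 6 samples together.

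Library totals were 26293486 to 36998935 counts in depleted and 32199606 to 36093068 counts in competent samples. Krt7, Epcam, Sox9 and Spp1, markers of biliary cells, were all above 80 CPM in every sample. Krt19, a keratin that marks the same cells, had 7.60, 7.60 and 9.77 CPM in depleted samples, against 12.2, 11.5 and 13.7 CPM in competent samples (1.49-fold lower, adjusted p = 0.000383), and Cftr, the chloride channel of bile duct cells, was at 1.66 CPM in depleted and 2.03 CPM in competent cells. The summed level of 6 biliary markers was 4070.3 to 4333.5 CPM in depleted and 5848.7 to 5933.5 CPM in competent samples, and 1 of the 6 (Sox9) rose while 4 fell. Endothelial markers (3 genes) summed to at most 0.436 CPM in depleted and 0.141 CPM in competent samples. The leukocyte markers Adgre1, Lyz2 and Ptprc had 10 counts or fewer in every sample, and the sum of 4 such markers, 5.27 to 6.18 CPM in depleted and 3.32 to 3.87 CPM in competent samples, was nearly all Cd68. Of 5 mesenchymal markers Col1a2 and Lum had 0 counts in all samples, and the sum was 2.72 to 3.48 CPM in depleted and 1.27 to 1.56 CPM in competent samples, nearly all Col1a1. Hepatocyte markers (5 genes) summed to 16.1 to 18.1 CPM in depleted and 18.8 to 25.8 CPM in competent samples, with Cyp3a11 at 0. Of 6 genes of motile cilia, Foxj1 and Ccdc39 rose 1.62-fold and 2.01-fold, Rsph1 fell 1.74-fold, and Dnah5, Tekt1 and Dnai1 had 6 counts or fewer in every sample. The part of these shifts in the changes of the transport genes was not tested.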

How the data were processed

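The deposited values were raw counts per gene, whole numbers in 1 table made by the authors. The tools named, without role or order, are cutadapt 1.16, STAR 2.7.1a, featureCounts, DESeq2 1.34.0, FastQC 0.11.9 and MultiQC 1.3, with build GRCm38, per the submitters' processing notes; per the labels' protocols, libraries were poly-A selected and directional. Annotation and strand setting are not given in the sources used here. Columns named WT and KO were read as competent and depleted by name and replicate number; 0 columns belonged to other samples. Lengths, positions and overlaps came from GENCODE M21 (GRCm38).

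Genes passing filterByExpr (13839) were scaled by TMM and tested with edgeR 4.0.16 (R 4.3.3) by its quasi-likelihood test (glmQLFit, glmQLFTest; two-sided). P-values were adjusted by the Benjamini-Hochberg method over all genes tested, with a threshold of 0.05. The model held the group alone, and folds are of depleted over competent cells. The code was tested on simulated counts. A floor of 3 counts was 0.0849 to 0.119 CPM in depleted and 0.0796 to 0.0880 CPM in competent samples, covering counting error only. The length trend was removed with a loess curve (span 0.5) of log2 CPM on log2 length per library, used as an offset. Within groups the chi-square per degree of freedom was 5.33 to 9.44 and between groups 286 to 319, so each sample counted once. Other settings were DESeq2 1.42.0, limma-voom (limma 3.58.1), other scalings and filters, a replicate block and leaving out each sample.

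Every member is accounted for; values in each sample are given for Wdr35, for the 3 largest rises and falls of each sub-complex past the threshold, and for genes whose sign turned with the length trend removed, with up to 4 genes of the accessory list. Other genes with such values, and the gene pairs whose counts are set as ratios, were chosen after their values were seen. A listed biliary marker is not reported here and is left out of the sums. The members and lists were chosen with earlier results of these data known.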

Additional observations from a re-analysis of the deposited data

How the results depend on the processing

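Of the 33 called genes 27 (9 higher, 18 lower) kept direction and call under all 14 alternatives; the other 6 were Hspb11, Ift172, Ift43, Ift46, Ttc26 and Tulp3. Among genes called with or without an alternative, direction turned only with the length trend removed, for Hspb11 (0.10) and Ttc21b (-0.13, called then and not before). Leaving out each sample gave 10 to 12 genes higher and 20 or 21 lower, 8929 to 9333 genes called in all, a Spearman correlation with length of 0.34 to 0.41, and medians of 0.034 to 0.15 for IFT-A, -0.27 to -0.21 for the IFT-B core, -0.088 to -0.038 for peripheral IFT-B, -0.27 to -0.19 for IFT-B, -0.024 to 0.064 for the BBSome, -0.31 to -0.27 for dynein-2, -0.40 to -0.29 for kinesin-2 and -0.19 to -0.059 for all 43. Upper-quartile scaling moved the medians to 0.058 for IFT-A, -0.11 for peripheral IFT-B, -0.27 for IFT-B, -0.34 for dynein-2, -0.37 for kinesin-2 and -0.18 for all. The median of all 43 was -0.18 with limma-voom and -0.18 with the replicate block. With limma-voom Kif17, the middle gene of the main fit, was at -0.35, and the middle gene was Kif3c. With the length trend removed the medians were -0.11 for IFT-A, -0.14 for the IFT-B core and for IFT-B, -0.11 for peripheral IFT-B, -0.13 for dynein-2 and -0.42 for kinesin-2, and the correlation with length was -0.033, which the removal brings about by construction. With the union of exons as the length Spearman's correlation was 0.53, and with protein length 0.52. The cause of the other shifts was not tested. Deviations of same-numbered samples from their group means correlated at -0.028, 0.013 and -0.016. Such values cannot show whether same-numbered samples share an animal or a culture. The replicate block changed 1 call, that of Hspb11 (adjusted p = 0.0543). Kif17, with at most 19 counts, is limited by depth.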
